A study of Arabidopsis thaliana with 6 samples.

Results

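The 9 genes described here are the enzymes of the early flavonoid pathway, the branch enzymes FLS1 and DFR, and the 3 MYB regulators of flavonol synthesis in Arabidopsis thaliana. They were found by matching the array's locus code of each probe to AT5G13930 (CHS), AT3G55120 (CHI), AT3G51240 (F3H), AT5G07990 (F3'H), AT5G08640 (FLS1), AT5G42800 (DFR), AT3G62610 (MYB11), AT2G47460 (MYB12) and AT5G49330 (MYB111). All 9 were on the array, read by 12 of its 43603 probes, and all 9 were among the 24455 genes tested. F3'H had 3 probes, F3H had 2, and the other 7 genes had 1 each. Transcripts were measured in fertilised flowers at stage 15 from wild-type plants and from atnaod, a T-DNA line of the gene of N-acetylornithine deacetylase, with 3 independent samples of each genotype and 1 single-colour array per sample. A sample pooled about 100 whole flowers of 17 to 20 soil-grown plants kept at 25 °C with 16 h of light and 8 h of dark. The accession of the wild type, and whether other insertion lines behave as this one does, are not given in the labels. The design sets flowers with and without the insertion in this gene of ornithine synthesis side by side after fertilisation.

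Flavonoids are built from phenylalanine. Chalcone synthase (CHS) joins a coumaroyl unit to malonyl units, chalcone isomerase (CHI) closes the central ring, and flavanone 3-hydroxylase (F3H) makes the dihydroflavonols, to which flavonoid 3'-hydroxylase (F3'H) adds a hydroxyl group on the side ring. At that point the path splits: flavonol synthase (FLS1) turns dihydroflavonols into flavonols such as kaempferol and quercetin, and dihydroflavonol reductase (DFR) sends them towards anthocyanins and the proanthocyanidins that brown the seed coat. DFR is usually counted as the first late gene and the others as early genes. MYB11, MYB12 and MYB111 are closely related R2R3-MYB factors that act alone on early genes and FLS1, whereas the late genes answer to a complex of TT2, the bHLH protein TT8 and the WD40 protein TTG1. In the flower, flavonols are known from pollen and other organs, and proanthocyanidins from the inner integument of the young seed.

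The mutated gene AtNAOD (AT4G17830) was low in the samples labelled atnaod. Levels are given as log2 intensity relative to the 75th percentile of that array. At its main probe AtNAOD read 1.77, 1.62 and 1.69 in wild type 1 to 3 and was not well above background on any atnaod array, which makes it at least 369-fold lower against the dimmest signals still detected. A second AtNAOD probe was above background on all 6 arrays and fell by 1.23 (SE 0.176, adjusted p over all probes = 0.0286). Over the arrays the 75th percentile of intensity was 1318 to 3007, and 73.2% to 79.2% of the probes were well above background. All 12 probes of the 9 genes were well above background on all 6 arrays, in 72 of 72 readings, and none was saturated. Samples 1 and 2 of both genotypes shared a slide and sample 3 of both lay on another. In these pooled whole flowers, fewer cells of a type and less RNA per cell cannot be told apart.

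DFR stood 2.17-fold lower and F3'H 2.04-fold lower in atnaod, while CHS, CHI, F3H and FLS1 kept 81.6% to 87.7% of their wild-type level and the 3 flavonol MYB genes differed from wild type by 0.29 or less on the log2 scale. Of the 9 genes only DFR passed the test (limma, p adjusted by Benjamini-Hochberg over all genes, under 0.05), so 1 fell and 0 rose. Of all genes tested 5.78% passed, 3.06% lower and 2.72% higher in atnaod. With the replicate number as a block, which pairs samples of the same number, 2 of the 9 passed (DFR and F3'H), against 5.39% of all genes. On the first slide these numbers mark no more than the slide does. In the fit of single probes the DFR probe was the 1 of 12 that passed (adjusted p over all probes = 0.0473), against 3.84% of all probes. Changes were below 0 in 8 of the 9, against 51.2% of all genes, and their median was -0.26 on the log2 scale, against -0.01 over all genes tested. Without DFR and F3'H the median of the other 7 was -0.25. In 5 of the 9 genes, F3H, F3'H, FLS1, DFR and MYB12, the 3 atnaod values all lay below the 3 wild-type values. This was the case for 17.0% of all genes tested, and 32.3% had the 3 atnaod values all on either side.

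**Figure D1:**
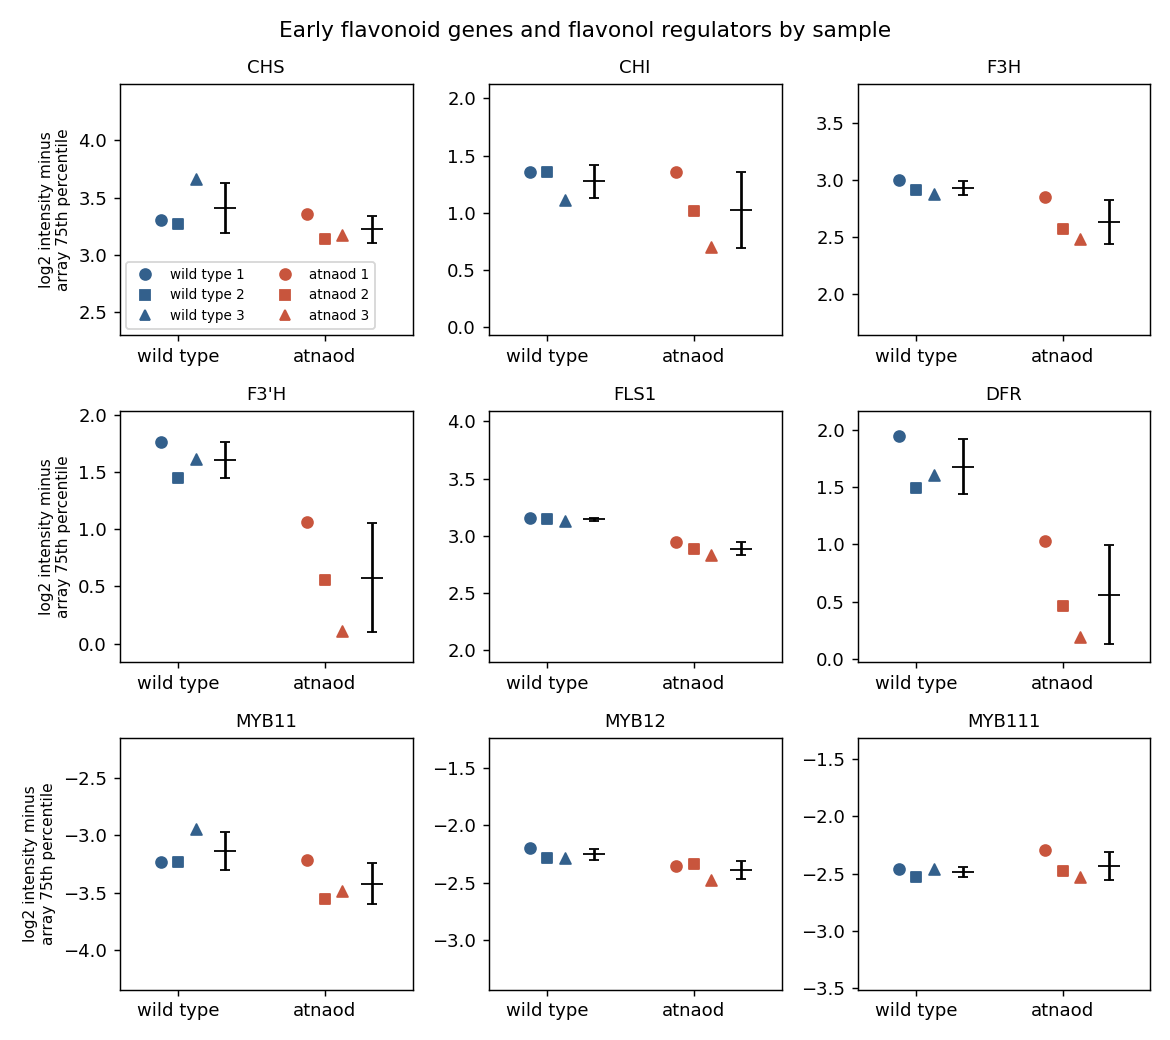
Levels of the 9 genes in each sample, as log2 intensity relative to the array's 75th percentile, with the same axis span of 2.2 log2 units in every panel; bars give the mean and SD of 3 samples. The atnaod points of F3'H and DFR lie clearly below the wild-type points (0.11 to 1.06 against 1.45 to 1.76 for F3'H), those of FLS1 lie just below (2.83 to 2.95 against 3.13 to 3.15), and those of CHS, CHI, MYB11 and MYB111 overlap with wild type.

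CHS, the entry enzyme, was read at 3.31, 3.27 and 3.66 across wild type 1 to 3, against 3.35, 3.13 and 3.18 in atnaod 1 to 3. The groups overlapped, since atnaod 1 was higher than wild type 1 and 2. The change was -0.19 (SE 0.131, 95% interval -0.50 to 0.12, adjusted p = 0.413), or 87.7% of wild type, and all 3 atnaod samples lay below the wild-type mean. By slide it was -0.04 and -0.48, and the second slide held wild type 3, the sample with the highest CHS value. Without wild type 3 the change was -0.07, and without any other single sample it was -0.26 to -0.15.

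CHI, the ring-closing enzyme, read 1.36, 1.36 and 1.11 in wild type against 1.36, 1.01 and 0.70 in atnaod. Sample atnaod 1 and wild type 1 and 2 were level to 2 decimals, and atnaod 3 was the lowest of the 6. The change of -0.25 (95% interval -0.67 to 0.16, adjusted p = 0.413) had the widest interval among the genes other than DFR and F3'H, and it was -0.09 without atnaod 3 and -0.42 without atnaod 1. F3H, which makes the dihydroflavonols, was 3.0, 2.91 and 2.87 in wild type against 2.85, 2.57 and 2.48 in atnaod. Here the groups did not overlap, although atnaod 1 lay only just under wild type 3. The change was -0.29 (95% interval -0.57 to -0.02, adjusted p = 0.174), and the second F3H probe, whose groups did not overlap either, gave -0.28 (adjusted p over all probes = 0.227).

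F3'H, the hydroxylase that sets the pattern of the side ring and leads to quercetin rather than kaempferol, was 1.76, 1.45 and 1.61 across wild type 1 to 3, against 1.06, 0.56 and 0.11 in atnaod 1 to 3. Every atnaod sample was below every wild-type sample, and the atnaod samples spread over a wider range (SD 0.478 against 0.158, n = 3 each). The change was -1.03 (SE 0.233, 95% interval -1.58 to -0.48), a level of 49.0% of wild type. It just missed the threshold (adjusted p = 0.0511) and passed it with the replicate block (adjusted p = 0.0463). The other 2 F3'H probes gave -0.95 and -1.02 (adjusted p over all probes = 0.0770 and 0.0799). The dimmer of them read at most 205 intensity units and gave -0.57 with normexp background correction. Leaving out atnaod 1 brought F3'H past the threshold (-1.27, adjusted p = 0.0148). Only 1.42% of all genes tested had a lower value of change than F3'H.

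FLS1, which makes flavonols, had the smallest spread of the 9 among wild-type samples (SD 0.0117), with 3.15, 3.14 and 3.13 there and 2.95, 2.88 and 2.83 in atnaod. The groups did not overlap, and the gap of -0.26 (SE 0.0808, 95% interval -0.45 to -0.06, adjusted p = 0.107) was small, at 83.8% of wild type. On the 2 slides it was -0.23 and -0.30.

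DFR, which takes dihydroflavonols into the other branch, was 1.95, 1.49 and 1.6 across wild type 1 to 3, against 1.03, 0.46 and 0.19 in atnaod 1 to 3. No values overlapped. DFR fell by 1.12 (SE 0.228, 95% interval -1.66 to -0.58, adjusted p = 0.0413), to 46.0% of wild type, lower in 3 of 3 atnaod samples and on both slides (-0.97 and -1.41). Only 1.27% of all genes tested had a lower value. The call rested on several samples: leaving out wild type 1, 2 or 3, or atnaod 2 or 3, ended it (adjusted p = 0.0844, 0.114, 0.110, 0.144 and 0.103), with changes of -0.93 to -1.21, and it was kept without atnaod 1 (adjusted p = 0.0119). It was also lost with another background correction (normexp, adjusted p = 0.0591), with the deposited values (adjusted p = 0.0684) and with no filter on dim probes (adjusted p = 0.125), at nearly the same size.

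The 3 flavonol regulators were dim, between 121 and 657 intensity units, and none passed the test. MYB11 was -3.23, -3.23 and -2.94 in wild type against -3.22, -3.56 and -3.49 in atnaod, with atnaod 1 inside the wild-type range. Its change was -0.29 (95% interval -0.60 to 0.02, adjusted p = 0.226), and by slide it was -0.16 and -0.55. Without wild type 3 it was -0.19. MYB12 was -2.19, -2.29 and -2.28 in wild type against -2.36, -2.33 and -2.48 in atnaod. Its groups were narrowly apart, and the change was -0.14 (95% interval -0.34 to 0.07, adjusted p = 0.371), or -0.09 without atnaod 3. MYB111 was -2.46, -2.53 and -2.46 in wild type against -2.30, -2.48 and -2.53 in atnaod, fully mixed, with a change of 0.05 (95% interval -0.18 to 0.27, adjusted p = 0.796). The intervals of all 3 MYB genes end short of the changes of DFR and F3'H.

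Whether F3'H and DFR differed in response from the other enzymes was compared within each array, where the scaling between arrays cancels. DFR and F3'H were singled out for their changes, so the pairs describe the same difference on another scale and are no separate support for it. The log2 difference between the DFR and FLS1 probes, the enzymes on either side of the branch point, was -1.21, -1.65 and -1.53 in wild type against -1.92, -2.42 and -2.64 in atnaod. DFR relative to FLS1 shifted by -0.86 in atnaod (95% interval -1.57 to -0.16, not adjusted over pairs), with no overlap. The difference between F3'H and F3H was -1.24, -1.47 and -1.26 in wild type against -1.79, -2.01 and -2.38 in atnaod, a shift of -0.74 (95% interval -1.25 to -0.22), again with no overlap. Over the 8 pairs of F3'H or DFR with CHS, CHI, F3H or FLS1, which share genes with each other, the shift was -0.93 to -0.74, the atnaod values all lay below wild type, and the upper ends of the intervals were at most -0.06. Each such pair had a two-sided exact permutation p of 0.1 (0.188 adjusted over all 15 enzyme pairs), the smallest that this test can give with 3 against 3 samples.

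Each enzyme pair was subtracted in the order that made its shift negative, so a range of shifts is one-sided by this choice. Among CHS, CHI, F3H and FLS1 themselves, the 6 pairs had shifts of -0.11 to 0.00, with overlapping groups in each. Their intervals were of unequal width. That of F3H against FLS1 ran from -0.27 to 0.19, whereas that of CHI against CHS ran from -0.77 to 0.64 and holds shifts as large as that of F3'H against F3H. DFR relative to F3'H was 0.18, 0.05 and -0.01 in wild type against -0.03, -0.10 and 0.08 in atnaod, which overlapped (shift -0.09, 95% interval -0.31 to 0.13).

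**Figure D2:**
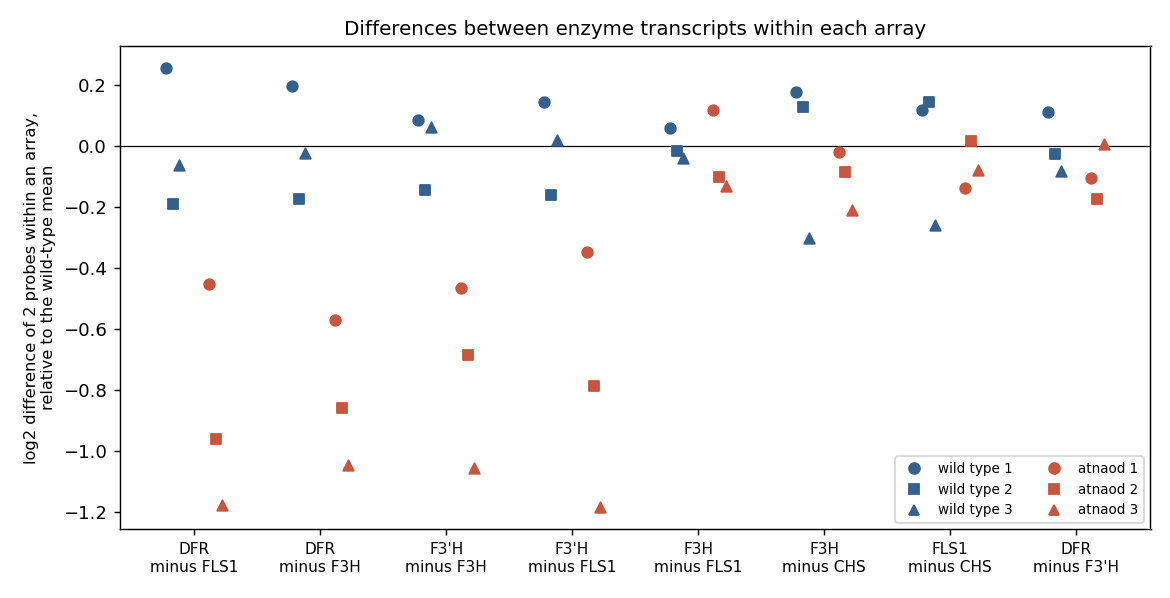
Log2 difference between the probes of 2 enzyme genes within each array, drawn relative to the wild-type mean of that difference, for 8 of the 15 pairs; colours give the genotype and symbols the sample number. The 4 pairs that set DFR or F3'H against F3H or FLS1 have all atnaod points below all wild-type points, and the other 4 pairs overlap.

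Upstream of CHS, the 4CL1 transcript was higher in atnaod. The 9 genes of the phenylpropanoid entry, from phenylalanine ammonia lyase (PAL) to 4-coumarate CoA ligase (4CL), had a median change of 0.29. By the test 1 rose and 0 fell, beside 2.72% and 3.06% of all genes tested. The ligase gene 4CL1, a main supplier of coumaroyl CoA for lignin, rose by 0.72 (SE 0.127, 95% interval 0.42 to 1.02, adjusted p = 0.0328). It read 2.90, 2.93 and 3.16 in wild type against 3.51, 3.75 and 3.87 in atnaod. PAL1 stood at 0.36 (adjusted p = 0.0581), PAL2 at 0.24 (adjusted p = 0.133) and 4CL5 at 0.29 (adjusted p = 0.131), each higher in 3 of 3 atnaod samples than in every wild-type sample, without a call. All 3 atnaod values lay above all 3 wild-type values in 3744 of the 24455 genes tested. The 2 genes of this list with a change below 0 were the cinnamate hydroxylase gene C4H and the ligase gene 4CL3. C4H stood at -0.16 (adjusted p = 0.384) and 4CL3 at -0.05 (95% interval -0.40 to 0.31, adjusted p = 0.880).

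Close relatives of the early enzymes were tested next. CHIL, a chalcone isomerase-like protein without isomerase activity that raises flavonoid output through CHS, read 1.34, 1.44 and 1.40 in wild type against 0.98, 0.75 and 0.53 in atnaod. It fell by 0.64 (SE 0.126, adjusted p = 0.0378), but not with the replicate block (adjusted p = 0.0511). Of the FLS1 paralogs, FLS3 stood at -0.56 (adjusted p = 0.0680), FLS2 at 0.19 (adjusted p = 0.202), FLS4 at -0.16 and FLS6 at -0.13, none called. FLS3 and FLS6 were dim, with wild-type means of -4.30 and -4.32. FLS5 and the second isomerase-like gene AT5G66220 were not above background in all samples of a genotype. Whether probes of these related genes read each other's transcripts was not tested.

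Genes that decorate flavonols with sugars and methyl groups had a median of 0.09, with 0 of 8 tested genes called. UGT78D1 and UGT78D2, which add the first sugar to flavonols, stood at -0.08 and 0.13, the rhamnosyltransferase gene UGT89C1 at 0.05 and the methyltransferase gene OMT1 at 0.18. BGLU6, a glucosyltransferase-like enzyme of flavonol glycosides, had a change of 0.48 (adjusted p = 0.0646, and 0.0472 under the replicate block, which passes). UGT73C6 stood at 0.36 (adjusted p = 0.230). Of the anthocyanin decoration genes 0 of 4 tested were called. The acyltransferase gene 3AT1 stood at -0.31 (adjusted p = 0.180), SCPL10 at 0.01 and UGT75C1 at -0.02. UGT75C1 was dim, with a wild-type mean of -4.82, and its interval of -0.57 to 0.54 leaves its change unsettled. UGT79B1 was well above background on 3 of 3 atnaod arrays but on 2 of 3 wild-type arrays, so no size is given for it.

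Downstream of DFR, 3 of 8 genes of the proanthocyanidin branch fell and 0 rose, with a median of -0.78. LDOX, the next enzyme after DFR, fell by 1.27 (adjusted p = 0.0316), BAN, the anthocyanidin reductase of the seed coat, by 1.06 (adjusted p = 0.0370), and GSTF12, which serves vacuolar transport, by 1.12 (adjusted p = 0.0285). The transport genes, the proton pump gene AHA10 at -0.78 (adjusted p = 0.0574) and TT12 at -0.78 (adjusted p = 0.0609), did not pass, but did with the replicate block (adjusted p = 0.0397 and 0.0442), which made 5 calls in this branch. TT10, TT15 and TT9 stood at 0.16, 0.30 and 0.01. Of the late-branch regulators 4 of 10 tested fell, MYB5 by 0.83, TT2 by 1.02, TT8 by 0.65 and TTG2 by 0.86, and 6 of the 10 had a change below 0. TT1 stood at -0.51 (adjusted p = 0.0693) and the shared partner TTG1 at 0.02. TT16 stood at -0.10, EGL3 at 0.19 (adjusted p = 0.246) and PAP1 at 0.28 (adjusted p = 0.285), none called. PAP2 was well above background on 3 of 3 atnaod arrays and on 1 of 3 wild-type arrays, so no size is given for it. It was not called (adjusted p = 0.131), and its adjusted p of 0.0416 under the replicate block rests on those wild-type readings. The 9 other flavonoid lists were chosen with earlier results of these data known, so their counts are no test against all genes. Together they held 66 tested genes, of which 8 fell and 1 rose, beside the 3.06% and 2.72% of all genes given above. The number called was 9 with all samples, 2 when wild type 1 was left out, 12 when atnaod 1 was, and 0 when any other single sample was.

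**Figure D3:**
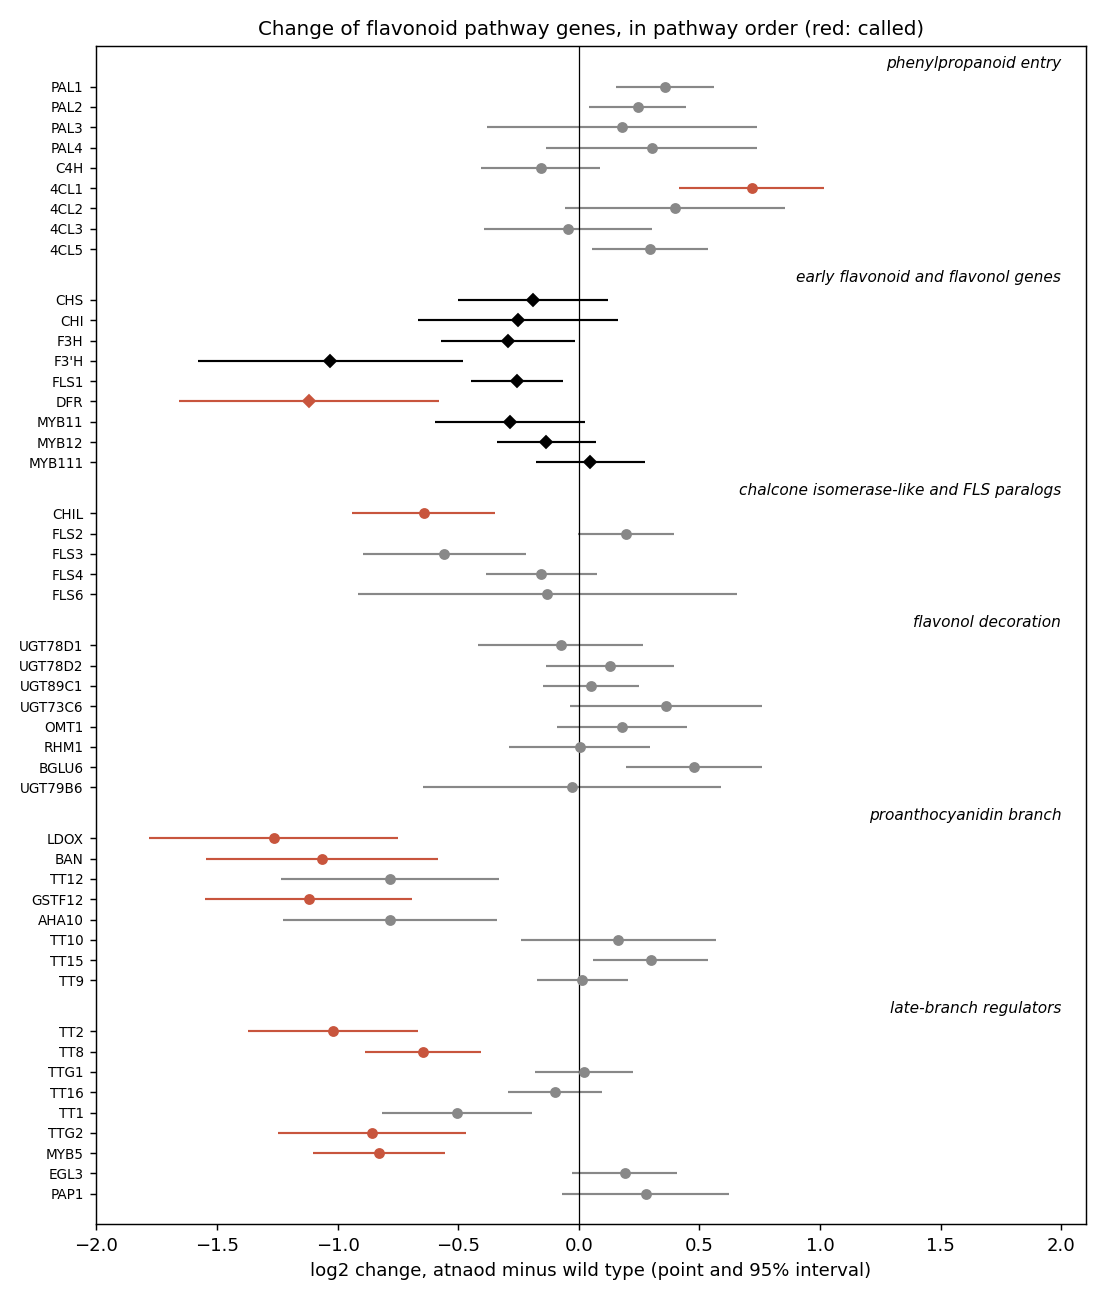
Log2 change of the tested genes of the lists drawn, atnaod minus wild type, with the 95% interval from the limma fit on 3 against 3 samples. Genes are grouped from the entry of the pathway to its late regulators. The anthocyanin decoration genes, the repressors and turnover factors, the light genes and the stamen and petal MYB genes are not drawn. PAP2 is left out for its wild-type readings. Red marks genes with an adjusted p under 0.05 and diamonds the 9 genes. Changes lie mostly above 0 at the phenylpropanoid entry, between -0.29 and -0.19 for CHS, CHI, F3H and FLS1, and between -1.27 and -1.03 for F3'H, DFR, LDOX, BAN and GSTF12.

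Repressors and turnover factors held 0 called genes in 13, with a median of 0.05. LBD39, one of the nitrogen-responsive repressors of anthocyanin regulators, stood at 0.45 (adjusted p = 0.0922), LBD37 at 0.05 and LBD38 at -0.20. SPL9 stood at -0.40 (adjusted p = 0.0855), CPC at -0.47 (adjusted p = 0.109), and KFB20, an F-box gene of PAL turnover, at 0.38 (adjusted p = 0.149). Of 6 genes that link light to CHS, 0 were called (median 0.11), with HY5 at 0.11, HYH at -0.14, UVR8 at 0.24 (adjusted p = 0.157) and RUP1 at 0.55 (adjusted p = 0.191). MYB21, MYB24 and MYB57, which act in stamens and petals, stood at 0.55 (adjusted p = 0.132), -0.08 and 0.29.

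The genes whose profiles over the 6 arrays were closest to each of 3 members were sought among 9252 genes with a symbol, by the root mean square distance between log2 profiles centred on their means. BAN was the closest of all to DFR, at a distance of 0.0521, followed by scpl20 (0.0782) and then by the member F3'H (0.0902). The next outside the 9 genes were DXPS1 (0.0911), GL2 (0.0972) and CYP78A5 (0.106). TT2 lay at 0.162, with 13 closer. CHS and FLS1 lay at 0.543 and 0.500 from DFR, with 1825 and 1051 genes closer, so most of the 9252 genes lay farther still. Nearest to CHS were PHT3;3 (0.0356), SPL13B, LGT9, SADHU5-1 and AGP1 (0.0641), and MYB11 stood at 0.0665 with 6 genes closer. Nearest to FLS1 were CBP20 (0.0164), VAMP721, RTM1, WDR5b and PAC1 (0.0282), with MYB12 at 0.0716 and 300 genes closer. Around FLS1, 576 genes lay closer than F3H did at 0.0861, so a small distance to it is common, whereas 22 lay closer to DFR than LDOX did at 0.194. The 6 arrays behind all these distances are the same.

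Marker lists of flower parts were read beside these values. Of all genes tested, 3.06% were called lower and 2.72% higher in atnaod. Of 6 ovule and seed coat genes 3 fell, STK by 0.73, SHP1 by 0.49 and SHP2 by 0.48, and INO, BEL1 and ATS stood at 0.05, 0.14 and 0.17. The summed level of the 6 on the linear scale (1 is the array's 75th percentile) was 15.4 to 16.9 in wild type against 10.98 to 12.1 in atnaod. Such a sum is set mainly by the brightest genes of a list. Here these were STK, SHP1 and SHP2, with wild-type means of 3.03, 1.56 and 1.61, against -0.14, -0.01 and -3.40 for INO, BEL1 and ATS. Of 5 tested endosperm and embryo genes 1 fell, LEC1 by 0.68. LEC1 was dim, with mean levels of -4.80 in wild type and -5.48 in atnaod. MINI3 stood at -0.83 (adjusted p = 0.0909), AGL62 at -0.35, FIS2 at -0.11 and MEA at 0.38, none called. The summed level of the 5 was 0.273 to 0.296 in wild type against 0.183 to 0.281 in atnaod. PHE1 and IKU2 were not well above background on all arrays of either genotype. Of 10 tested pollen genes 0 were called, with sums of 10.2 to 12.5 in wild type against 9.16 to 17.8 in atnaod. The tapetum list had 3 of 9 genes tested, and its defining genes AMS, MS1, MYB80, ACOS5, TSM1 and SHT did not pass that filter; the sums of the other 3 were 1.1 to 1.15 in wild type against 1.27 to 1.35 in atnaod. In the same order, sums of the petal and stamen list were 15.8 to 23.6 and 18.3 to 21.3, and the petal gene RBE fell by 0.97 (adjusted p = 0.0199). RBE was dim as well, with mean levels of -3.67 in wild type and -4.64 in atnaod. The other genes of that list, AP3, PI and PTL, stood at -0.23, -0.03 and 0.21, none called. The carpel and nectary sums were 4.13 to 6.06 and 5.68 to 8.49. They were set mainly by SWEET9, with a wild-type mean of 2.26 against -2.74 for CRC and -1.82 for SPT. CRC stood at 0.59 (adjusted p = 0.0592, and 0.0434 under the block). SWEET9 stood at 0.40 (adjusted p = 0.286) with overlapping groups, and SPT at 0.15, neither called. The green tissue sums were 303 to 429 and 303 to 409, with 0 of 3 genes called.

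The atnaod samples did not share 1 level of DFR. Relative to the wild-type mean DFR stood lower by 0.65, 1.22 and 1.49 in atnaod 1, 2 and 3, and the median of the proanthocyanidin branch stood at -0.55, -0.64 and -1.16. In the same samples the endosperm and embryo median was -0.06, -0.40 and -0.58, the pollen median -0.05, 0.23 and 0.53, and the ovule and seed coat median -0.23, -0.24 and -0.16. The part of these tissues in the values of F3'H and DFR was not tested. Of the atnaod samples only atnaod 3 lay on the second slide, so sample and slide cannot be told apart in its values.

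**Figure D4:**
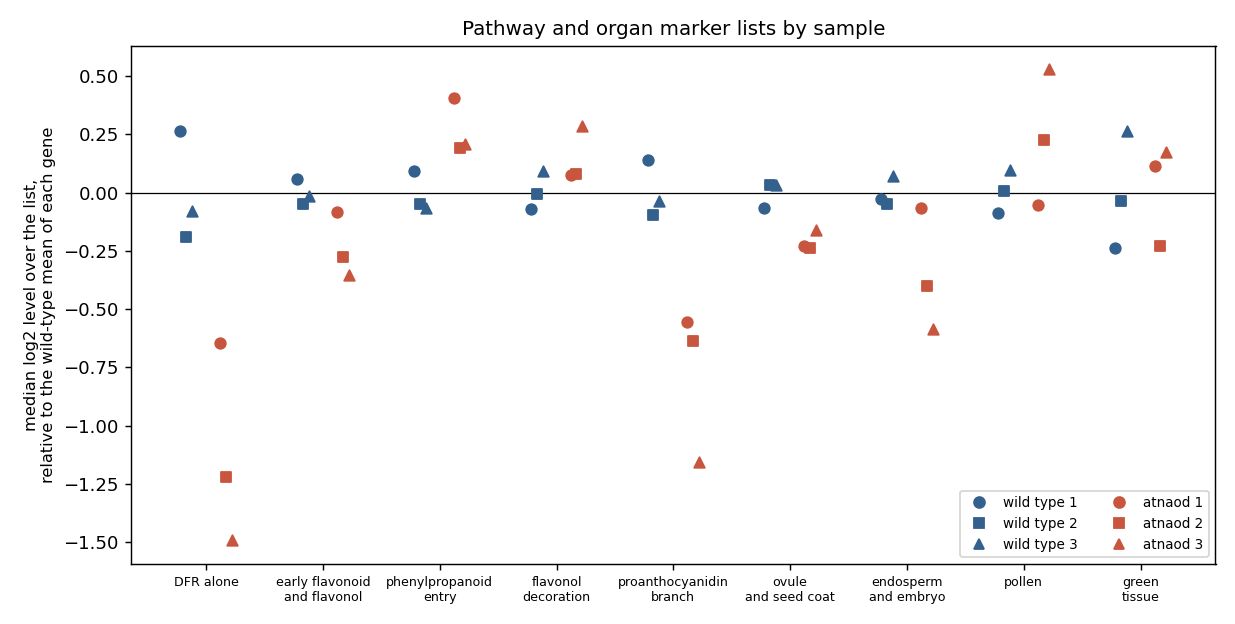
DFR and the median of 8 gene lists in each sample, as log2 level relative to each gene's wild-type mean. DFR and the proanthocyanidin branch are lowest in atnaod 3 and least low in atnaod 1, the early flavonoid and flavonol list is only slightly below wild type (-0.08 to -0.35), and the pollen list is highest in atnaod 3.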

How the data were processed

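Total RNA of 6 samples was labelled with Cy3 from 200 ng and read on 1 single-colour Agilent array each. Per the file headers, spot intensity came from Feature Extraction 10.5.1.1 (10.5 per the submitters' processing notes), and the statistics block lists a spatial detrending; the processed intensity is background-subtracted, with no scaling from array to array. A deposited value table also holds intensity. Each of its columns equals that array's median spot signal multiplied by a constant (0.732 to 1.61), on a linear scale without background subtraction. The constants bring the 75th percentile of every column to the same level (2140 to 2144). The flags for saturation and background are other columns of the same deposited files.

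The 75th percentile of log2 processed intensity was subtracted per array. Outlier spots (2 to 35 per array) were left out and spots of 1 probe averaged. Probes were tested (32494) where every array of 1 genotype or of both read well above background, and the probe with the highest mean stood for a gene (24455). Both genotypes entered a limma fit (3.58.1, R 4.3.3), two-sided, with Benjamini-Hochberg adjustment over all genes and a threshold of 0.05. Probes were fitted likewise over all probes. Enzyme pairs were compared with exact permutation tests over samples (scipy 1.17.1). On simulated data for this comparison (24455 genes) the fit called 77% of genes changed by 1 and 94% of those changed by 2 on the log2 scale. It also made 10 false calls. The simulated noise was independent between arrays, with no slide effect, so these shares may not hold for the real arrays.

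Locus codes come from the array's annotation and matched TAIR10.1 genes for 37943 of 38413 probes with such a code. Replicate numbers come from the labels. Across genes, the deviations of 2 samples with 1 number from their own group means had correlations of 0.190, 0.111 and 0.535 (numbers 1 to 3), so the numbers were taken to pair the samples. Number 3 is also the second slide, and on the first slide the samples of unlike number had 0.215 and 0.105, so there the numbers mark no more than the slide does. The slide and the scan cannot be told apart. The rule for named genes takes all 9 members, AtNAOD, the called and up to 4 lowest-p genes of each other flavonoid list, and the 5 nearest profiles to CHS, FLS1 and DFR; other genes are named to describe their list. The members and lists were chosen with earlier results of these data known. Alternatives were another background correction, scalings, filters, probe rules, priors, weights, blocks, the first slide alone and leaving out each sample. Probe positions and sequences were not analysed here.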

Additional observations from a re-analysis of the deposited data

How the results depend on the processing

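The number of the 9 genes called, 1 with all samples, stayed 1 (DFR) with quantile normalization, median centring and the mean over probes. It was 2 (DFR and F3'H) with probes above background on all arrays, a trended and robust prior, the replicate block and the slide block, and 3 with array weights, where FLS1 joined (adjusted p = 0.0499). It was 0 with normexp, with the deposited table, with dim probes kept and on the first slide alone, and 0 to 2 when 1 sample was left out. All genes called, 1414 with all samples, were 243 with normexp, 1317 with the replicate block, 10 with the deposited values, 22 with no filter, 13 on the first slide, 2124 with the slide block, 2259 with the trended prior, 3897 with array weights, and 15 to 1552 without 1 sample. Sizes moved less: over 18 alternatives DFR was -1.36 to -0.93 and F3'H -1.27 to -0.79, DFR was called in 9 and F3'H in 6. The median of the 9 genes was -0.39 without atnaod 1, and -0.39 to -0.22 over the fits without 1 sample. MYB111 changed sign without atnaod 1 (-0.0219), and without 1 sample it ranged from -0.0219 to 0.0956. The shift of DFR against FLS1 lay between -1.07 and -0.71, and that of F3'H against F3H between -0.87 and -0.55. The replicate block changed no call other than those given beside the results above. The median of all genes moved by less than 0.1 under every scaling. The other 9 flavonoid lists held 2, 0, 0 and 0 called genes with normexp, the deposited values, no filter and the first slide, against 15 with the trended prior and 17 with array weights. The cause of these shifts was not tested. The dim MYB signals and 3 arrays per genotype limit the precision.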
